A study of Mus musculus with 6 samples.

Results

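The genes of the respiratory chain were examined in mouse liver RNA. They are the subunit genes of complexes I to V, taken from the count table by symbol: names beginning with Ndufa, Ndufb, Ndufc, Ndufs or Ndufv and a number, Sdha to Sdhd, Uqcr, Cox4 to Cox8, and Atp5, without assembly factors or pseudogene names, and with the 13 protein genes of the mitochondrial genome, which the table lists as ND1, COX1, CYTB and the like. The rule gave 99 of 20914 listed genes, 86 nuclear and 13 mitochondrial. The filter on low counts kept 96 of them (83 nuclear and all 13 mitochondrial genes). Cox4i2, Cox6a2 and Cox8b did not pass it.

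The study compared 3 PBS with 3 DOX libraries of liver total RNA. All 6 came from mice labelled BucheKI/KI-Hep, the series being about more butyrylcholinesterase in hepatocytes. All carried the label Alb-Cre, a Cre recombinase driven by the albumin promoter and so active mainly in hepatocytes, and all had received a BDL treatment, which the labels do not spell out and which in liver work commonly stands for bile duct ligation. The labels also do not explain S10D, CKI or the agent DOX, and give no age, so the groups are called PBS and DOX here; every animal had the knock-in, the Cre and BDL, and no group without them was used.

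The respiratory chain sits in the inner mitochondrial membrane. Complexes I and II pass electrons from NADH and succinate to ubiquinone, complex III passes them to cytochrome c, complex IV passes them to oxygen, and complex V, the ATP synthase, uses the proton gradient built by complexes I, III and IV. Most subunits are encoded in the nucleus and imported, while a small core of hydrophobic subunits is encoded on mitochondrial DNA and transcribed there as long precursors; complex II is wholly nuclear. Hepatocytes are rich in mitochondria and use the chain to power gluconeogenesis and urea synthesis.

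Total counts were 32826493 to 41102844 per library, so that 3 counts, taken as the floor of detection, stood for 0.073 to 0.0914 CPM (counts scaled to the library total); this floor covers counting error only. Bche itself had 192.8, 244.9 and 194.2 CPM in PBS replicates 1 to 3 and 969.2, 447.5 and 595.0 in DOX replicates 1 to 3, each DOX value above each PBS value (edgeR log2 fold change 1.67 ± 0.27 (SE), adjusted p = 0.106). The hepatocyte markers were abundant, with Alb at 4.87 to 5.81% of PBS counts and 10.1%, 6.09% and 10.2% of DOX counts. The labels do not say that libraries of a group came from separate animals, so a p-value here speaks of library-to-library spread alone, part of which may be technical. In bulk liver, fewer cells of a type and less RNA per cell cannot be told apart.

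No respiratory chain gene was told apart between DOX and PBS. With edgeR's quasi-likelihood test, 0 of 96 members passed an adjusted p of 0.05 in either direction, while 0.0291% of the 13725 genes tested did, 4 genes in all (0.0219% higher and 0.00729% lower in DOX). The lowest adjusted p among members was 0.4, for Ndufa7, and with DESeq2, which called 1.19% of all genes, it was 0.212. At an unadjusted p under 0.05 there were 3 members, Ndufa7, Ndufb2 and ND2, all higher in DOX, against a background of 5.03% of genes higher and 4.87% lower, 9.9% together. With TMM scaling, the same 3 members were the ones whose 3 DOX values all lay above the 3 PBS values, 3.12% of the 96, and for none did all DOX values lie below; over all tested genes 7.84% lay apart upward and 9.02% downward, 16.9% together. A share of members near or under these backgrounds is not a result about the chain. The count at an unadjusted p under 0.05 was 18 without DOX replicate 1, where 10.5% of all tested genes were under it, and 1 without DOX replicate 3, where 7.31% were.

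The fold changes themselves were small. Among the 77 nuclear members with at least 10 CPM, the 95% intervals of the fold change ran from 0.739 to 1.69 in all, so a doubling or a halving lay outside every one of them. The median log2 fold change (DOX over PBS) was 0.13 over the 83 nuclear members and 0.05 over the 13 mitochondrial ones, against -0.02 over all tested genes. Of the nuclear members 75 of 83 had a value above 0 with TMM scaling, but 40 of 83 when libraries were scaled by total counts alone; 47.0% of all tested genes were positive. Scaling by total counts moved the median of all genes to -0.15 and the nuclear median to -0.01, so that the nuclear genes stood 0.14 above the rest there and 0.15 above it with TMM. This excess depended on the libraries: it was 0.29 without DOX replicate 1 and -0.02 without DOX replicate 3. With limma on log2(FPKM + 0.1) and log2(FPKM + 1) it was 0.08 and 0.02. Those fits took every gene with a mean FPKM above 0, so their background is another set of genes. The nuclear median stayed at -0.01 in both, while the median of all genes was -0.087 and -0.026. Scaled by total counts, the nuclear medians of complexes I to V were 0.04, -0.09, -0.06, -0.01 and 0.02, so the direction of each complex given below for TMM turned for II, III and IV.

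**Figure D1:**
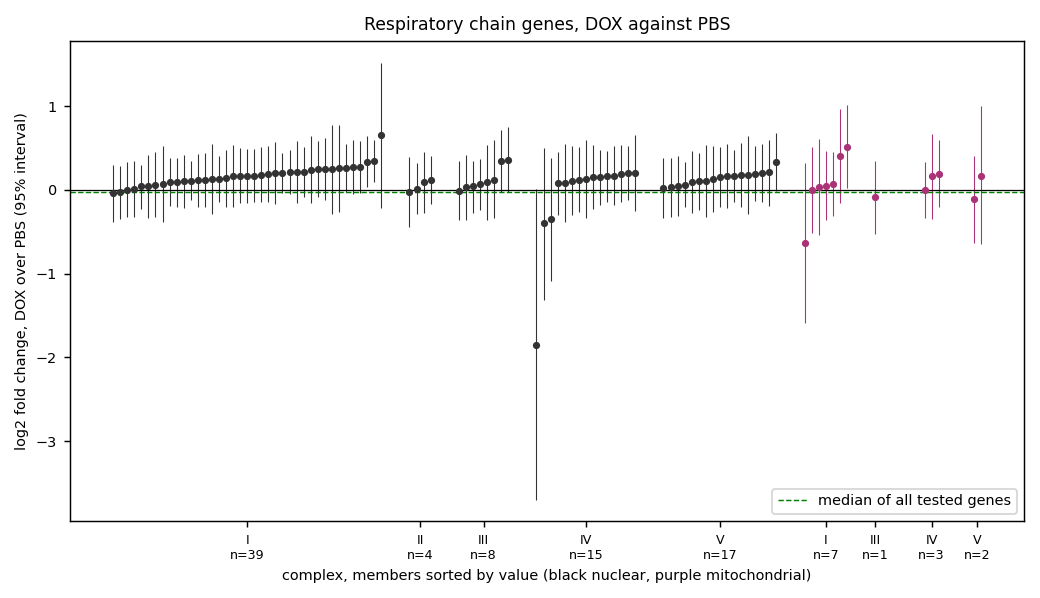
Log2 fold change of DOX over PBS (vertical axis) with its 95% interval for each of the 96 tested respiratory chain genes, sorted by value within each complex (nuclear genes black, mitochondrial genes purple), with n genes per complex. Most nuclear points lie a little above 0 with TMM scaling, 75 of 83 (40 of 83 with scaling by total counts), and nearly all intervals include 0.

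Complex I has the most genes, 39 nuclear members, all tested. Their median log2 fold change was 0.17, 36 were positive, and per length they ran from 2.53 FPKM (fragments scaled to gene length and library total) for Ndufb4c to 310.1 for Ndufa6, with a median of 80.3. Ndufa7 (chr17:33824572-33838316, GRCm38), an accessory subunit, was measured at 81.5, 81.2 and 86.7 CPM in PBS and 98.1, 97.7 and 121.0 in DOX. The PBS values were close together and all DOX values lay above them, DOX replicate 3 the furthest. Its log2 fold change was 0.35 ± 0.11 (SE, n = 3 per group; edgeR adjusted p = 0.4), and 0.24 without DOX replicate 3.

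Ndufb2 (chr6:39592565-39599843), a small subunit of the membrane arm, had 31.7, 38.9 and 34.0 CPM in PBS and 39.1, 40.6 and 52.1 in DOX. Here the groups only just stood apart, with 38.9 in the highest PBS library against 39.1 in the lowest DOX library, and in FPKM, which follow total counts, they overlapped (46.3 in PBS replicate 2 against 44.5 in DOX replicate 1). The log2 fold change was 0.33 ± 0.13 (SE; edgeR adjusted p = 0.48). Ndufs5 and Ndufa8, subunits on the intermembrane space side, had log2 fold changes of 0.26 ± 0.13 and 0.27 ± 0.14 (SE), with overlapping groups. The parts of complex I that carry the redox centres differed less. Ndufv1, which binds NADH, had 128.5, 173.8 and 147.0 CPM in PBS and 126.0, 143.9 and 167.0 in DOX, a log2 fold change of -0.04 ± 0.15 (SE). Ndufs1, the largest iron-sulfur subunit, stood at -0.03 ± 0.14, and Ndufa12 at 0.00 ± 0.14. These 3 were the lowest of the 39.

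Complex II, succinate dehydrogenase, also belongs to the citric acid cycle. Its 4 genes were close to each other in level per length, 127.0 FPKM for Sdha to 174.8 for Sdhb, and gave a median log2 fold change of 0.05. Sdha, the flavoprotein, had 342.8, 363.0 and 378.2 CPM in PBS and 315.6, 360.5 and 418.7 in DOX, so the DOX libraries spanned the PBS ones on both sides (log2 fold change 0.01 ± 0.13, SE). Sdhb, the iron-sulfur subunit, stood at -0.02 ± 0.18. The membrane anchors Sdhc and Sdhd stood at 0.12 ± 0.12 and 0.09 ± 0.16. The lowest edgeR adjusted p of the 4 was 0.783.

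Complex III had 8 nuclear members, with a median log2 fold change of 0.08 and 7 positive. The largest values were those of small subunits. Uqcr11 (chr10:80402997-80406821), the smallest of the complex, had 104.7, 125.0 and 119.6 CPM in PBS and 118.8, 140.3 and 190.1 in DOX. Uqcrq (chr11:53427922-53430831), a ubiquinone-binding subunit, had 214.0, 249.2 and 219.6 CPM in PBS and 247.6, 256.1 and 359.8 in DOX. In both genes DOX replicate 3 stood well above the other 5 libraries, whose groups overlapped. Log2 fold changes were 0.36 ± 0.17 and 0.34 ± 0.16 (SE; edgeR adjusted p = 0.52 and 0.523), and without DOX replicate 3 they were 0.16 and 0.15. The core protein gene Uqcrc2 stood at 0.07 ± 0.13 and the Rieske iron-sulfur gene Uqcrfs1 at -0.01 ± 0.16.

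Complex IV, cytochrome c oxidase, had 18 nuclear members, of which 15 were tested, with a median log2 fold change of 0.13 and 12 positive. Ndufa4, long counted with complex I and now placed in complex IV, had the highest level per length, 592.4 FPKM; its log2 fold change was 0.20 ± 0.20 (SE). Cox5a, a matrix-side subunit, had 129.9, 153.5 and 148.0 CPM in PBS and 148.0, 148.8 and 199.0 in DOX, overlapping, with 0.20 ± 0.14. Cox6b1, which sits where the complex pairs into dimers, stood at 0.19 ± 0.15, Cox6a1 at 0.16 ± 0.13 and Cox8a at 0.17 ± 0.15. No adjusted p in the complex was under 0.5.

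Several complex IV subunits come as pairs encoded by separate genes, and the liver forms made up nearly all of each pair. Cox4i1 had 400.7 to 513.0 FPKM, while Cox4i2, the form best known from lung, had 9 counts over the 6 libraries. Cox6a2 and Cox8b, the heart and muscle forms, had 2 and 4 counts, against 45484 and 38827 for Cox6a1 and Cox8a. Cox7a1, another heart and muscle form, was at 0.522 to 1.48% of the level of Cox7a2 per length. The striated muscle markers Acta1, Ckm and Tnnt3 were at or under the floor in every library and summed to at most 0.0908 CPM. Ndufa4l2, a hypoxia-induced relative of Ndufa4, was at 0.0857 to 0.243% of it. Cox7a2l, which takes part in joining complexes III and IV, was well expressed at 104.9 FPKM, with a log2 fold change of 0.12 ± 0.17 (SE).

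Cox6b2, known as the testis form of Cox6b1, gave the lowest log2 fold change of all members, -1.85 ± 0.81 (SE; edgeR adjusted p = 0.5). Its counts were 14, 58 and 11 in PBS and 8, 11 and 4 in DOX. A single library, PBS replicate 2, held most of them, and without it the log2 fold change was -0.52. The low-level relatives Cox7a1 (-0.40 ± 0.40) and Ndufa4l2 (-0.35 ± 0.32) were the other nuclear members of this complex under 0.

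Complex V, the ATP synthase, had 17 nuclear members, all with a positive log2 fold change with TMM scaling, from 0.02 to 0.33, and a median of 0.15 (0.02 with scaling by total counts). Atp5e, the epsilon subunit of the central stalk, had 90.8, 111.8 and 101.8 CPM in PBS and 105.3, 123.6 and 154.5 in DOX. The groups overlapped by 1 library each, and DOX replicate 3 was again the highest. Its log2 fold change was 0.33 ± 0.15 (SE; edgeR adjusted p = 0.505). Atp5d, the delta subunit beside it, stood at 0.20 ± 0.15 and Atp5k, a small membrane subunit, at 0.21 ± 0.17. The ring subunit c is made from 3 genes whose mature proteins are the same. Atp5g3 led at 201.0 to 271.4 FPKM, and Atp5g2 and Atp5g1 were at 54.5 to 60.5% and 41.6 to 50.6% of it, with log2 fold changes of 0.10, 0.06 and 0.19 and SEs of 0.15, 0.12 and 0.14. The catalytic subunit gene Atp5b, singled out after its values were seen, had the highest level of any nuclear member, 677.8 FPKM.

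The nuclear genes moved together across libraries more than between groups. Taking each gene's log2 CPM minus its mean over the 6 libraries, the median over the 83 nuclear members was -0.22, 0.07 and -0.02 in PBS replicates 1 to 3 and -0.17, 0.01 and 0.34 in DOX replicates 1 to 3. DOX replicate 3 was high and DOX replicate 1 low, so the DOX group alone spanned most of the range. DOX replicate 3 was the highest library for 77 of the 83, against 21.2% of all tested genes. The lowest was PBS replicate 1 for 58 and DOX replicate 1 for 17, against 13.1% and 16.5% of all tested genes (29.6% for either). The pattern held in every complex: the median in DOX replicate 3 was 0.33 for complex I, 0.27 for II, 0.40 for III and 0.36 for both IV and V. It was not particular to the chain. DOX replicate 3 was highest for 16 of 22 import genes, 27 of 46 assembly factors and 10 of 19 citric acid cycle genes. So it was for 8 of 13 other chain components and 6 of 8 antioxidant genes. For mitochondrial DNA, RNA processing, biogenesis and coenzyme Q genes it was 3 of 17, 4 of 20, 2 of 12 and 4 of 13. Without DOX replicate 3 the median log2 fold change of the nuclear members was -0.02, with 37 of 83 positive. It was 0.27 without DOX replicate 1, 0.06 without PBS replicate 1, 0.20 without PBS replicate 2, 0.17 without DOX replicate 2 and 0.15 without PBS replicate 3.

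**Figure D2:**
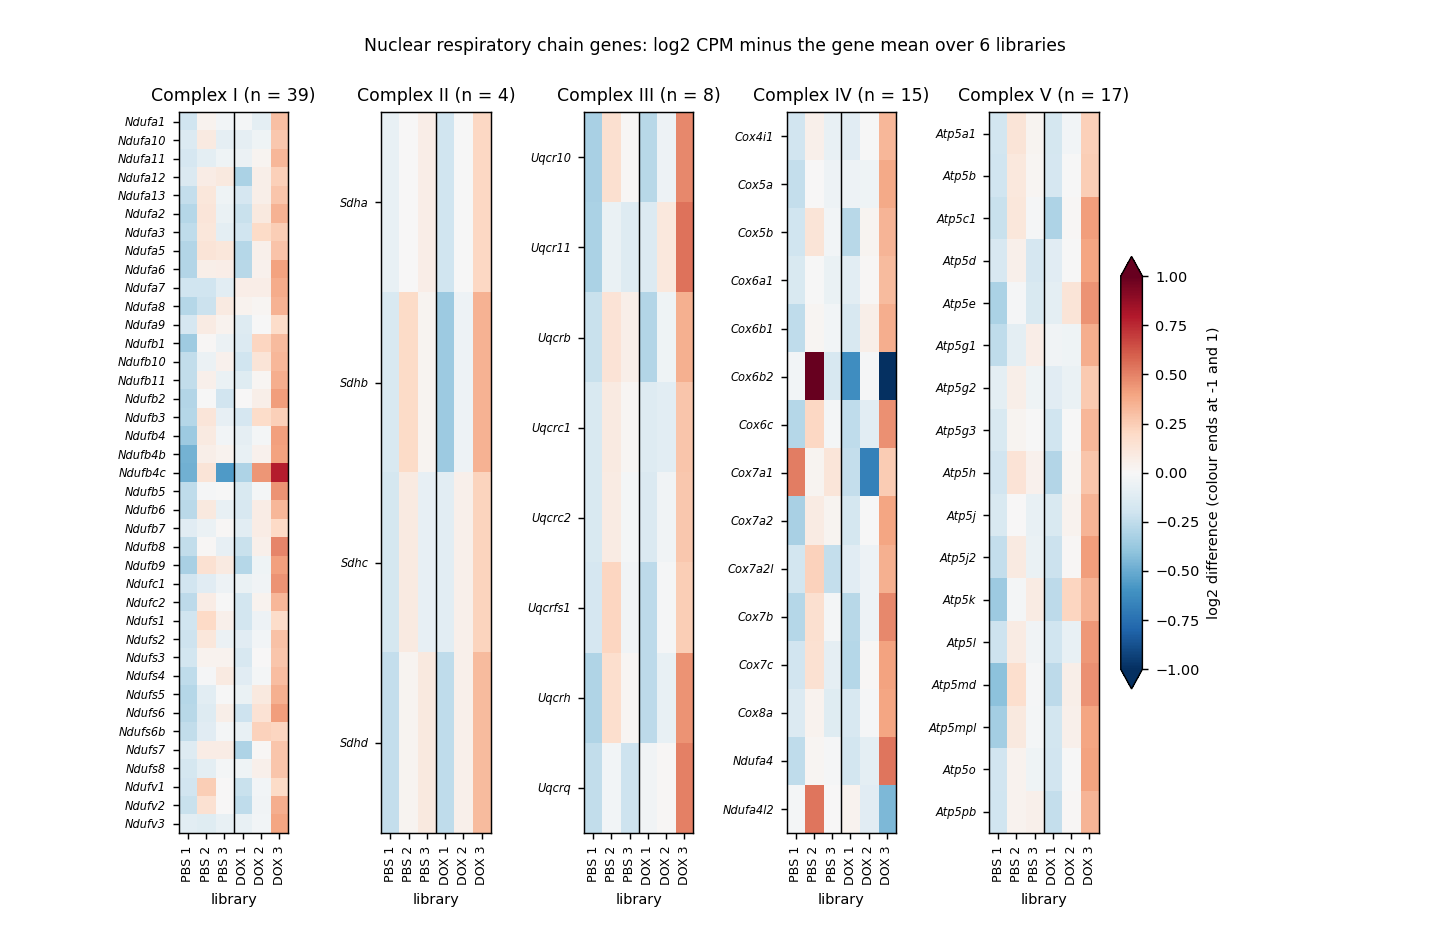
Each row is a nuclear respiratory chain gene and each column a library; colour gives log2 CPM minus the gene's mean over the 6 libraries, by complex, with the vertical line between PBS and DOX. The column of DOX replicate 3 is the highest for 77 of 83 genes and PBS replicate 1 the lowest for 58, while low-count genes such as Cox6b2 depart from this.

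Many of these genes are short, and transcript length moved with the libraries. Of the 83 nuclear members 29 had a gene length under 600 bases, against 221 of 13725 tested genes. Over the 188 short genes outside the chain the median deviation was -0.13, -0.01 and -0.04 in PBS and -0.08, 0.06 and 0.23 in DOX. As in the chain genes, PBS replicate 1 and DOX replicate 1 were the lowest and DOX replicate 3 the highest. For the 10614 genes of 2000 bases and over, it was -0.05 in DOX replicate 3. The 29 short nuclear members had a median deviation of 0.40 there and a median log2 fold change of 0.17, and the 8 members of 2000 bases and over had 0.31 and 0.15. In DOX replicate 3 the median deviation was 0.31 for these 8 long members and -0.05 for all tested genes of their length. The 34 members of at least 1000 bases had a median log2 fold change of 0.10, an alternative chosen after the data were seen. The part of length in the level of the chain genes was not tested.

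**Figure D3:**
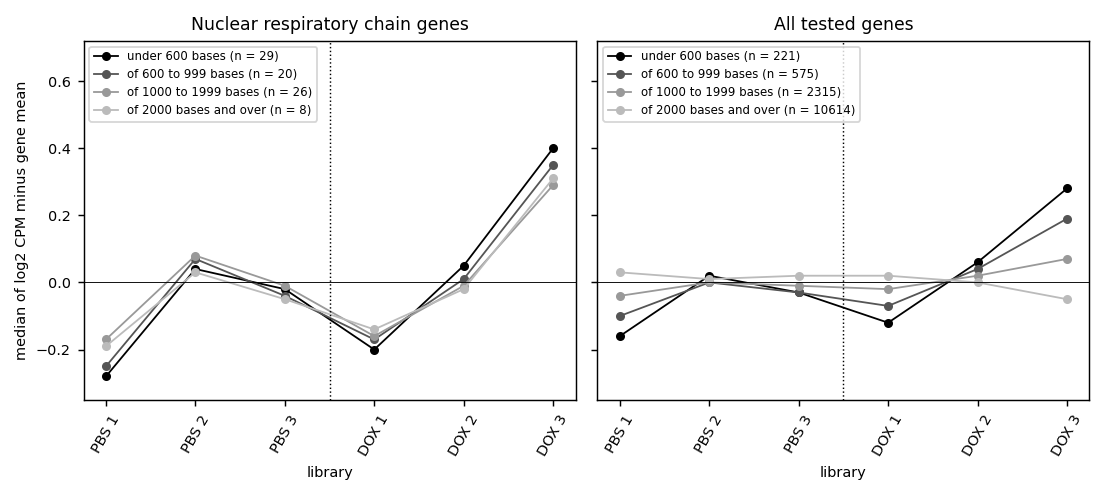
Median over genes of log2 CPM minus the gene mean (vertical axis) in each library, for nuclear respiratory chain genes (left) and all tested genes, chain genes included (right), in 4 classes of gene length; the dotted line parts PBS from DOX, and lines only join the libraries of a class. In DOX replicate 3 the chain genes are at 0.29 to 0.40 in every class, and all tested genes run from 0.28 for the shortest to -0.05 for the longest.

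Sequence upstream of the nuclear genes was looked at because they moved together. RefSeq promoter sequences (GRCm38.p6) were matched for 69 of the 86, and 250 bases before the start were searched on both strands for 4 short words bound by factors known for respiratory genes. The NRF1 word, the capital run in Ndufa11 and Atp5g2 below, stood in 4 of 69 (5.8%) against 0.88% of 27025 genes. The 27025 are all genes with such a sequence, members included, whether or not they were among the 13725 tested here. They were not matched to the members for expression, and no difference in share was tested. The ETS word CCGGAAG, of the kind bound by GABP (NRF2), stood in 12 of 69 (17.4%) against 7.83%. The YY1 word AAGATGGC and the ERR word TCAAGGTCA each stood in 1 of 69 (1.4%), against 1.83% and 0.42%. One member from each of complexes I, IV and V that holds the NRF1 word is shown, 5′ to 3′ on the gene's strand, with words found in capitals (Ndufa11, chr17:56717512-56717761, plus strand; Cox6a1, chr5:115348959-115349208, minus strand; Atp5g2, chr15:102671048-102671297, minus strand). In Cox6a1 the second capital run is the ETS word on the other strand.
Ndufa11: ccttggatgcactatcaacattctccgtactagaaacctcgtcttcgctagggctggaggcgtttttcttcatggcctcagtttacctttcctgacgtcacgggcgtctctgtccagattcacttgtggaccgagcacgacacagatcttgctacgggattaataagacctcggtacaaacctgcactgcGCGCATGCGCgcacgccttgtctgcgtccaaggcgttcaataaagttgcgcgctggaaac
Cox6a1: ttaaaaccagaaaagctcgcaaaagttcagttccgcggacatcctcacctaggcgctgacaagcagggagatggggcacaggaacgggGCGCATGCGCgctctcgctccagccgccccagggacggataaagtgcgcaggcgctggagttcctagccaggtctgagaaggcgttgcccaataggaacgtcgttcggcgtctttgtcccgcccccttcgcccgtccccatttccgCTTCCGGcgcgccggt
Atp5g2: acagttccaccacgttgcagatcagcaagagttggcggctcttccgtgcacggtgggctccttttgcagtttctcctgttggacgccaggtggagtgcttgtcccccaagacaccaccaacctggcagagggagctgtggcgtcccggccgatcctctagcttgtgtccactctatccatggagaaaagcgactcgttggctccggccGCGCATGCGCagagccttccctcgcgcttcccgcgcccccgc
These 3 genes had log2 fold changes of 0.21 ± 0.11, 0.16 ± 0.13 and 0.06 ± 0.12 (SE). A word in this window is a description and does not show a bound factor.

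The 13 mitochondrial genes took 4.53%, 5.14% and 4.91% of counts in PBS and 4.09%, 5.08% and 5.62% in DOX. The group means were 4.86 ± 0.308% and 4.93 ± 0.776% (SD, n = 3), and the DOX libraries held both the lowest and the highest share. The 86 nuclear members took 1.11%, 1.28% and 1.27% in PBS and 1.02%, 1.21% and 1.37% in DOX, low and high in the same libraries. The ratio of the genomes hardly varied, at 4.07, 4.02 and 3.86 mitochondrial counts per nuclear count in PBS and 4.0, 4.20 and 4.10 in DOX. The means were 3.98 ± 0.11 and 4.10 ± 0.10 (SD), and the groups overlapped. Both genomes' messages thus made up similar parts of the counts in both groups, within the spread of 3 libraries.

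**Figure D4:**
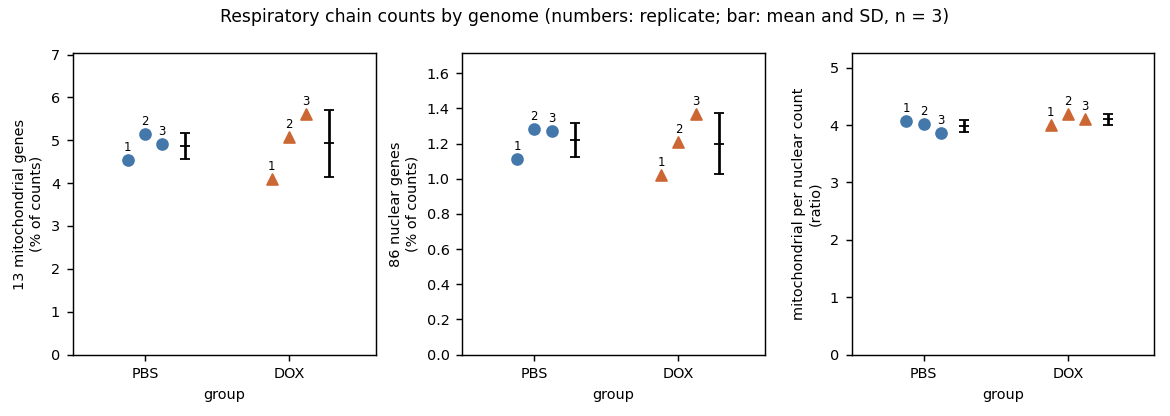
Share of each library's counts on the 13 mitochondrial genes (left), on the 86 nuclear genes (middle) and the ratio of both (right), for PBS (circles) and DOX (triangles), numbered by replicate, with mean and SD (n = 3). DOX replicate 1 is lowest and DOX replicate 3 highest in both shares, and the ratio stays between 3.86 and 4.20.

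Within the mitochondrial genome log2 fold changes ran from -0.64 to 0.51, and no gene passed (lowest edgeR adjusted p = 0.496). COX1 (mt-Co1), a catalytic subunit of complex IV, held 39.0 to 41.8% of mitochondrial counts in each library. It had 17735, 19958 and 18542 CPM in PBS and 17081, 19765 and 25948 in DOX, overlapping, with a log2 fold change of 0.16 ± 0.22 (SE). ND2 (mt-Nd2, chrM:3914-4951), a complex I subunit, had 3407, 4007 and 3952 CPM in PBS and 4392, 4750 and 7077 in DOX. All DOX values lay above all PBS values, and DOX replicate 3 lay far above the rest. In FPKM, which follow total counts, DOX replicate 1 (4064) lay just under PBS replicate 3 (4066). Its log2 fold change was 0.51 ± 0.22 (SE; edgeR adjusted p = 0.496), and 0.27 without DOX replicate 3. ND1 (mt-Nd1, chrM:2751-3707), its neighbour, had 4499, 6344 and 5076 CPM in PBS and 5374, 6407 and 9241 in DOX, overlapping, with 0.40 ± 0.24. At the far end of the heavy-strand genes, CYTB (mt-Cytb, chrM:14145-15288), the complex III subunit that binds ubiquinone, had 8068, 10071 and 9300 CPM in PBS and 7236, 9537 and 9042 in DOX, with -0.09 ± 0.19. ND4 and ND5, which lie between, stood at 0.07 ± 0.17 and 0.05 ± 0.18.

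Ratios inside the mitochondrial genome do not depend on how libraries are scaled. ND2 gave 0.192, 0.201 and 0.213 counts per COX1 count in PBS and 0.257, 0.240 and 0.273 in DOX, with no overlap. ND1 gave 0.254, 0.318 and 0.274 in PBS and 0.315, 0.324 and 0.356 in DOX, with a small overlap. CYTB gave 0.455, 0.505 and 0.502 in PBS and 0.424, 0.483 and 0.348 in DOX, again overlapping. ND2 was thus higher against COX1 in each DOX library, DOX replicate 1 included, although that library had the lowest mitochondrial share of all. ND4 gave 0.189, 0.199 and 0.192 in PBS and 0.192, 0.197 and 0.163 in DOX, and ND5 gave 0.286, 0.314 and 0.281 in PBS and 0.290, 0.295 and 0.246 in DOX, both overlapping. The ratios were picked after the values were seen, and whether genes differed in their change was not tested.

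Levels per length split the mitochondrial genes into a high and a low set. COX1 led with a mean of 12780 FPKM, followed by CYTB (7774), ND1 (6362), ND2 (4377), ND5 (3077) and ND4 (2691). Between COX1 and ND4 in genome order lie COX2 (198.4 FPKM), ATP8 (33.4), ATP6 (125.8), COX3 (147.6), ND3 (40.8) and ND4L (52.3), which together held only 0.638 to 0.871% of mitochondrial counts. ND6, the one protein gene on the light strand, had 9.4 FPKM and 146 to 212 counts per library. COX1 lay above CYTB in every library, while ND1 lay above CYTB in DOX replicate 3 alone. The genes of the low set encode core subunits of complexes I, IV and V that are transcribed with their neighbours.

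**Figure D5:**
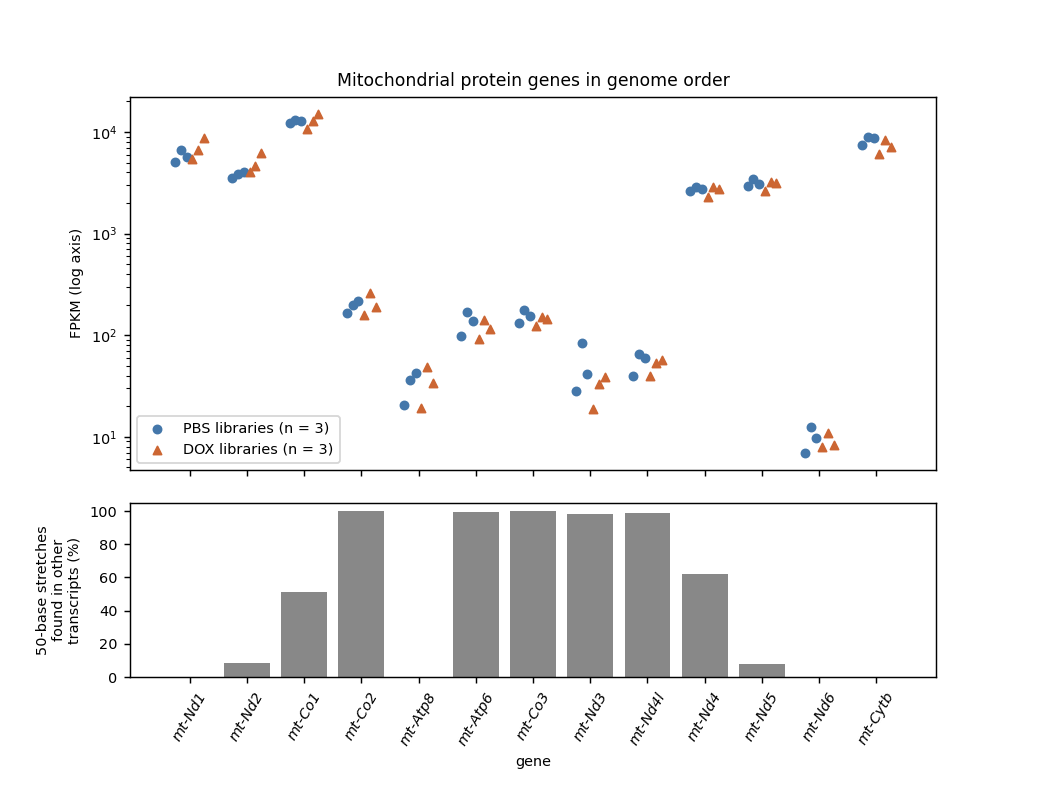
Top: FPKM on a log axis for the 13 mitochondrial protein genes in genome order, 3 PBS libraries (circles) and 3 DOX libraries (triangles). Bottom: percent of each gene's 50-base stretches that also stand in another annotated transcript. The run from mt-Co2 to mt-Nd4l is low in all 6 libraries, and 5 of its 6 genes have at least 98.0% of stretches in other annotated transcripts, mt-Atp8 having none there.

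The genes of the low set other than ATP8 have annotated near-identical copies in the nucleus. On chromosome 1 of GRCm38 (GENCODE M21), 6 annotated pseudogenes in a row on the minus strand (Gm28661, Gm10925, Gm28437, Gm28438, Gm10222 and Gm28439) match COX2, ATP6, COX3, ND3, ND4L and part of ND4 with an identity of 100% (ND3, 99.71%). Of all 50-base stretches, 100% in COX2, 99.5% in ATP6, 99.9% in COX3, 98.0% in ND3 and 98.8% in ND4L also stand in another annotated transcript, against 62.2% in ND4, 51.1% in COX1, 8.2% in ND2 and 0.0% in ND1 and CYTB. A read lying wholly within such stretches matches another annotated transcript as well. How such reads were counted is not known, so the values of these genes are uncertain. COX1 and ND4 also hold many such stretches and were in the high set. Counts on the copies were not analysed here, and whether sharing lowered the values of the low set was not tested. The first 90 bases of COX2 and ND3 and an inner window of COX1 are shown beside their copies. The COX1 window was picked as the 90 bases that differ most from the copy Gm13340. Capitals in a copy mark the bases that differ from the mitochondrial gene (mt-Co2, chrM:7013-7102; Gm28661, chr1:24615476-24615565, minus strand; mt-Nd3, chrM:9459-9548; Gm28438, chr1:24613030-24613119, minus strand; mt-Co1, chrM:5772-5861; Gm13340, chr2:22589114-22589203, minus strand).
mt-Co2: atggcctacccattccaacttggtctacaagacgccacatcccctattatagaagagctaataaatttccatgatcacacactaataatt
Gm28661: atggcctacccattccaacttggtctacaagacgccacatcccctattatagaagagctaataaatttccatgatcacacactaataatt
mt-Nd3: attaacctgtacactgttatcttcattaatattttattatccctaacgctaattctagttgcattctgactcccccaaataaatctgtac
Gm28438: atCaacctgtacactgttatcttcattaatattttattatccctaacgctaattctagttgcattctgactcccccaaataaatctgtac
mt-Co1: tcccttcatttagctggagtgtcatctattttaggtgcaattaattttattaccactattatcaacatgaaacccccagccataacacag
Gm13340: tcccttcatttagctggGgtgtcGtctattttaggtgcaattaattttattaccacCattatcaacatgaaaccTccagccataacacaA
The COX2 pair has no capital, and the COX1 copy, 97.61% identical over the gene, has several.

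ATP8 shares no stretch with another annotated transcript, and it was as low as its neighbours. Only annotated transcripts were searched. On chromosome 1 the copies of ATP6 (Gm10925, ending at 24614651) and COX2 (Gm28661, starting at 24614885) leave a gap between them. In the mitochondrial genome ATP8 lies at that place, and the sequence of the gap was not searched, so a copy of ATP8 there was not tested. ATP8 overlaps ATP6 on the same strand, with this stretch in common (chrM:7927-7969, capitals marking the start codon of mt-Atp6):
overlap: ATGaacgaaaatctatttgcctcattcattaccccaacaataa
ND4L overlaps ND4 in the same way, and ND6 lies on the strand opposite ND5. Strand could not part reads over the bases shared by the same-strand pairs, chrM:7927-7969 for ATP8 and ATP6 and chrM:10167-10173 for ND4L and ND4. For ND5 and ND6, which share chrM:13552-13565, it could, but whether counting used strand is not known. How reads over these shared bases were counted was not tested. Why ATP8 was low was not tested. In the low set log2 fold changes ran from -0.64 ± 0.42 for ND3 to 0.19 ± 0.18 (SE) for COX2, with ATP8 at 0.17 ± 0.36, ATP6 at -0.11 ± 0.23, and COX3 and ND4L at 0.00; ND6 stood at 0.03 ± 0.25. ND3 shows how wide the spread was: it had 9.3, 28.9 and 13.7 CPM in PBS and 6.86, 11.4 and 15 in DOX. Over the 7 other mitochondrial genes the median log2 fold change was 0.07. Nuclear members can share reads too: Ndufb4c has all of its stretches in Ndufb4 (100%), and 84.8% of those of Atp5l and 47.9% of those of Atp5h stand elsewhere, so these values are uncertain as well.

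Other genes of mitochondrial respiration gave a similar picture, with 0 called in each list. Of 13 further chain components outside the rule, 10 were positive, and the median log2 fold change was 0.16. Among them the glycerol phosphate dehydrogenase gene Gpd2 stood at 0.46 ± 0.17, the transhydrogenase gene Nnt at 0.84 ± 0.38 and the ADP/ATP carrier gene Slc25a5 at 0.34 ± 0.16 (SE; edgeR adjusted p = 0.454, 0.505 and 0.523). The 46 assembly factors, which help build the complexes but do not stay in them, had a median of 0.02 with 27 positive; Uqcc2 (0.31 ± 0.10), Acad9 (0.23 ± 0.09) and Coa3 (0.32 ± 0.12) had the smallest p. The difference from the median of 0.13 over the nuclear subunit genes was not tested.

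The citric acid cycle genes, which feed the chain with NADH and succinate, had a median of 0.04 over 19 genes. Fh1, fumarase, was the clearest of them. It had 317.5, 426.8 and 377.6 CPM in PBS and 175.2, 261.5 and 234.6 in DOX, all DOX values below all PBS values. Its log2 fold change was -0.74 ± 0.18 (SE), which did not pass over all genes (edgeR adjusted p = 0.266), and its neighbours in the pathway, Sdha to Sdhd, stood between -0.02 and 0.12. Idh3a stood at -0.40 ± 0.16 and Dlat at 0.20 ± 0.11.

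Genes that act on mitochondrial DNA and RNA had medians near that of all tested genes, -0.02, of which 7278 of 13725 were negative. The 17 genes of mitochondrial DNA upkeep and transcription had a median of -0.08 with 11 negative, led by Mterf2 (-0.81 ± 0.29), Tefm (-0.30 ± 0.13) and Mterf1b (-1.07 ± 0.46). The 20 genes of mitochondrial RNA processing had a median of -0.04, and Rexo2, an exonuclease for short RNAs, stood at 0.30 ± 0.08 with 58.3 ± 3.3 CPM in PBS and 71.5 ± 0.289 in DOX (SD, n = 3). Fastk stood at -0.22 ± 0.09 and Slirp at 0.25 ± 0.11. Of 12 regulators of mitochondrial biogenesis 10 were negative, with a median of -0.09; Esrra, the nuclear receptor whose word was searched above, had 46.3, 47.6 and 62.6 CPM in PBS and 29.8, 34.0 and 47.2 in DOX. Its log2 fold change was -0.50 ± 0.18 (SE; edgeR adjusted p = 0.462), and the groups overlapped by 1 library. Gabpb1 and Gabpb2, subunits of GABP, stood at -0.26 ± 0.14 and -0.20 ± 0.11.

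The 22 outer membrane and import genes had a median of 0.03. Tomm6, a small subunit of the outer membrane import pore, had 51.9, 52.9 and 54.7 CPM in PBS and 64.8, 69.0 and 74.3 in DOX. Both groups were tight and did not overlap, with a log2 fold change of 0.38 ± 0.09 (SE; edgeR adjusted p = 0.259). Timm13 stood at 0.33 ± 0.12 and Tomm40, the pore itself, at -0.25 ± 0.12. The 13 genes of coenzyme Q synthesis had a median of 0.04, with Coq8a at 0.51 ± 0.15, Coq8b at -0.35 ± 0.12 and Coq2 at 0.14 ± 0.08. The 8 antioxidant and uncoupling genes tested had a median of 0.11, with Gpx4 at 0.30 ± 0.16, Txn2 at 0.11 ± 0.12 and Glrx2 at 0.09 ± 0.11. No adjusted p in these lists was under 0.259.

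Markers of other liver cells moved with the libraries too. Summed over 7 cholangiocyte markers, levels were 278.9, 364.1 and 256.8 CPM in PBS and 242.4, 213.2 and 118.7 in DOX, lowest in DOX replicate 3, where the chain genes were highest; 7 of 7 had a negative log2 fold change. Summed over 7 endothelial markers they were 109.9, 37.6 and 111.3 CPM in PBS and 177.9, 92.8 and 171.0 in DOX, with 7 of 7 positive. Macrophage markers summed to 593.5, 491.6 and 588.1 CPM in PBS and 649.6, 572.0 and 455.9 in DOX, with 2 of 6 positive. Stellate markers summed to 82.1, 54.1 and 98.3 CPM in PBS and 145.4 and 123.6 in DOX replicates 1 and 2, with DOX replicate 3 the lowest of the 6 libraries and 6 of 6 positive. Neutrophil markers summed to 24.9, 13.1 and 21.2 CPM in PBS and 16.5, 10.6 and 14.7 in DOX, with 4 of 4 negative. Erythroid markers summed to 63.6, 44.3 and 78.5 CPM in PBS and 68.1, 19.8 and 148.1 in DOX, highest in DOX replicate 3 as the chain genes were, with 3 of 3 tested genes positive. No marker in these lists was at or under the floor in all libraries. Hepatocyte markers had a median log2 fold change of 0.10, with 4 of 7 positive. None of these lists had a gene with an edgeR adjusted p under 0.216, and their part in the levels of the chain genes was not tested.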

How the data were processed

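Per the labels' protocols, 1.3 ug of liver total RNA went into libraries made with a SMARTER kit. GRCm38 and mm10 are named per the submitters' processing notes. The aligner, counter, strand setting and read length: not given in the sources used here. Whole-number counts per gene and FPKM were deposited by the authors. The deposited FPKM equal counts over 1 length per gene and the column total in 18913 of 18913 genes checked (relative tolerance 1e-05).

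Replicates of a group gave a chi-square of 41.9 to 132.2 per degree of freedom over genes, more than sampling noise, and every library counted as 1 sample. Counts of all 6 libraries were tested with edgeR 4.0.16 (R 4.3.3; filterByExpr, TMM, quasi-likelihood), DOX against PBS without a block, and p-values were adjusted by Benjamini-Hochberg over 13725 genes, with a threshold of 0.05. CPM are TMM-scaled, with group SDs over 3 libraries. SEs come from the F statistic. The script was tested on simulated data. The members and lists were chosen with earlier results of these data known. Named genes are the mitochondrial genes, up to 4 nuclear genes per complex and direction of smallest p, paired isoforms, members below the filter and 3 genes of smallest p per list; genes named for their level or shared sequence were chosen after values were seen. Alternatives were RLE or total-count scaling, DESeq2 1.42.0, limma-voom (limma 3.58.1), other filters, the replicate block, leaving out each library, log2(FPKM + 1) and log2(FPKM + 0.1). Sequences come from RefSeq and GENCODE M21. No table of values other than these was used.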

Additional observations from a re-analysis of the deposited data

How the results depend on the processing

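In none of the 17 alternatives did a respiratory chain gene pass an adjusted p of 0.05; the lowest was 0.212, with DESeq2. Of the 46 named members, 22 had a change of sign in at least 1 alternative, 13 of them without DOX replicate 3. The nuclear median log2 fold change ran from -0.02 to 0.27 and the mitochondrial one from -0.09 to 0.18 when libraries were left out one at a time. With limma on the FPKM values, scaled by total counts, the nuclear median was -0.01 at either pseudocount. Over all genes, the number called was 176 with DESeq2 (128 higher, 48 lower), 61 without the filter (45 higher, 16 lower), 2 with limma-voom (1 higher), and 4 in the reported fit, of which 1 was lower; 2 were lower with total-count scaling and 2 with log2(FPKM + 0.1). Between PBS and DOX libraries of the same replicate number, correlations of deviations were 0.192, 0.13 and 0.01. The other PBS and DOX pairs ran from -0.183 to 0.057. With 3 libraries per group these values cannot decide whether the numbers pair the libraries. With the replicate block 21 genes were called, 17 higher and 4 lower, 0 of them members. With 1 library left out, 3 to 4 genes were called, 3 to 4 of them higher and 0 to 1 lower (0 when the library was PBS replicate 1, PBS replicate 3, DOX replicate 1 or DOX replicate 2). The causes were not tested. Chosen after the data were seen were the fits without Alb, which gave a nuclear median of 0.14, and the medians by length and by nuclear copies. The 3 libraries per group limit what could be called.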
